A study of Bos taurus with 29 samples.

Results

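NNAT (ENSBTAG00000003212), CTXN3 (ENSBTAG00000031135), DUSP9 (ENSBTAG00000008319) and RTP5 (ENSBTAG00000040598) were examined in the remaining hypothalamus of heifer calves reared on a high (HI) or moderate (MOD) plane of nutrition. They are 4 of 24596 genes in the table and all 4 were among the 13785 genes that passed the expression filter (more than 1 CPM in at least 14 calves). The genes were chosen from the transcripts the study listed for this tissue because 13 or 14 of the 14 HI calves lay below the MOD median. The values of HI against MOD calves are therefore a description without a test, and only variation between calves on the same diet was tested. The working name of the group, genes evenly lower on the high diet, went against the values: HI and MOD calves overlapped for every one of the 4 genes, and 2 MOD calves, 975 and 991, lay below the HI median for all 4.

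The series holds RNA-Seq of hypothalamic tissue from 29 Angus X Holstein-Friesian heifers, 14 HI and 15 MOD, with 1 library per calf and all calves sampled at 21 weeks of age. HI calves were given 1.5 kg (10 litres) of milk replacer a day with concentrates ad libitum in the calf phase of 8 weeks, and then concentrates ad libitum with hay to appetite in the post-weaning phase of 11 weeks. MOD calves were given 0.5 kg (4 litres) of milk replacer and 1 kg of concentrates a day, followed by 1 kg of concentrates with hay to appetite. The intended gains were 1.2 and 0.5 kg/day. Per the study's methods, the arcuate nucleus (ARC) was cut away before extraction, the sequenced calves were healthy and close to the mean gain of their diet, and after weaning calves were kept in pens of a single diet, so that pen and diet cannot be told apart.

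In calves the hypothalamus senses nutrient supply and controls feeding, water balance, stress responses and the release of gonadotrophin-releasing hormone at puberty. Its nuclei are built from neurons with distinct peptides, so a block of tissue carries more or less of a peptide transcript depending on which nuclei it holds. NNAT (neuronatin) is an imprinted gene that encodes a small membrane proteolipid of neural and endocrine cells, known to affect calcium handling in the endoplasmic reticulum. CTXN3 (cortexin 3) encodes a small single-pass membrane protein found mainly in brain and kidney. DUSP9 (MAP kinase phosphatase 4) encodes a dual-specificity phosphatase that switches off MAP kinases such as ERK. RTP5 belongs to the receptor transporter protein family, whose best known members carry odorant and taste receptors to the cell surface.

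The number of reads counted over genes, which is less than the number sequenced, was similar on both diets. It was 11956507 to 17206435 recovered reads per HI calf (median 13194818) and 11820640 to 15925226 per MOD calf (median 13761675). The tissue carried transcripts of hypothalamic neurons. Vasopressin (AVP) and oxytocin (OXT), of the magnocellular neurons, reached 3472 and 1070 normalised CPM in MOD calf 2346 and 400 and 778 in HI calf 986, against medians of 0.687 and 2.80 in HI and 3.45 and 3.1 in MOD calves. Of the 4 listed ARC genes with an identifier, AGRP was at or near 0, with a highest value of 0.0712 CPM in HI and 0.153 in MOD calves. The other 3, none of which is made by ARC neurons alone, were present. POMC had medians of 19.5 CPM in HI and 16.9 in MOD calves, CARTPT 2.70 and 4.69, and NPY 1.39 and 1.45. Transcripts of pituitary genes were present too. Of the 7 listed pituitary genes, 3 had an identifier, PRL, CGA and POMC. PRL had medians of 14.8 CPM in HI and 7.29 in MOD calves and CGA 2.09 and 1.45. Over all genes, 4 calves stood apart from the others, MOD 1689, HI 2120, MOD 1395 and MOD 2551, with mean distances to the other calves of 3.13 to 3.51 on the log2 scale of a multidimensional scaling over 500 genes per pair, against at most 2.44 for the rest. With limma over 13785 genes, 0 genes passed an adjusted p of 0.10 and a fold change of 1.5 in either direction (179 had an unadjusted p under 0.05). The same count was 0 with the quasi-likelihood test of edgeR, 1 (higher in HI, 0.00725% of genes) with its exact test and 2 (1 in each direction, 0.00725% each) with DESeq2. Limma and both edgeR tests called 0 genes lower in HI calves, so none of the members was called by them. The gene that DESeq2 called lower is not named here. The study, with the exact test of edgeR, listed 39 genes for this tissue, 30 of them lower. Why the counts differ was not tested.

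NNAT was the calcium-related proteolipid among the members and ranged from 36.7 CPM (calf 2528) through a median of 86.3 to 252 CPM (calf 986) in HI calves. In MOD calves it ranged from 16.9 CPM (calf 1395) through a median of 189 to 288 CPM (calf 911). The lowest value of all 29 calves was thus a MOD value, and 2 MOD calves (911 and 2532) lay above the highest HI calf. Of the 14 HI calves, 13 were below the MOD median, the exception being calf 986, while 9 of 15 MOD calves were above the HI median. Over the table, at least 13 HI calves lay below the MOD median for 228 of the 13785 genes (1.65%) and at least 13 lay above it for 174 (1.26%), and nothing is read from the members' counts because this measure chose them. The mean was 97.7 ± 59.1 CPM (SD, n = 14) in HI and 156 ± 89.2 (SD, n = 15) in MOD calves, and the log2 difference HI minus MOD was -0.55 (SE 0.37) on the log2(CPM + 1) scale. The MOD median was 2.19 times the HI median and the MOD mean 1.60 times the HI mean, and 6 MOD calves (975, 991, 1057, 1082, 1395 and 1690) were below the HI median.

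CTXN3 ranged in HI calves from 0.0816 CPM (calf 553, a single read) through a median of 2.37 to 10.6 CPM (calf 1388). In MOD calves it ranged from 1.20 CPM (calf 975) through a median of 6.30 to 22.9 CPM (calf 2346). HI calf 1388 was the exception among 14 and lay above the MOD median, and 13 of 15 MOD calves were above the HI median. The rule was met narrowly, because HI calf 986 had 6.05 CPM (95% Poisson interval 4.79 to 7.54) against the 6.30 CPM (5.01 to 7.83) of MOD calf 3622 that set the median. Intervals of this kind cover counting error only. The means were 3.32 ± 2.90 CPM (SD, n = 14) and 7.30 ± 5.55 CPM (SD, n = 15), with a log2 difference of -0.97 (SE 0.36). CTXN3 was the member with 3 HI calves (553, 1089 and 1360) below the lowest MOD calf, 975. These 3 had 1, 8 and 4 reads. The intervals of calves 1089 (0.256 to 1.17 CPM) and 1360 (0.0857 to 0.806) overlapped that of calf 975 (0.697 to 1.92). An HI calf was lower than a MOD calf in 160 of the 210 possible pairs (76.2%).

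DUSP9, the MAP kinase phosphatase, had the fewest reads of the members at the median, 22 per calf (4 to 149). It ranged from 0.533 CPM (calf 2528) through a median of 1.29 to 5.67 CPM (calf 986) in HI calves. The corresponding MOD values were 0.268 CPM (calf 1395), 2.30 CPM and 12 CPM (calf 2346). Calf 986 was the single HI exception, the next HI calf, 1531, had 1.94 CPM (interval 1.31 to 2.75), and the interval of the median MOD calf 1689 was 1.54 to 3.31. Of the MOD calves, 11 of 15 were above the HI median and 3 (1392, 2346 and 2532) were above the highest HI calf. The means were 1.57 ± 1.26 CPM (SD, n = 14) and 3.46 ± 3.22 CPM (SD, n = 15), and the log2 difference was -0.61 (SE 0.27). Calf 986 held 25.8% of the summed CPM of HI calves and calf 2346 held 23.1% of that of MOD calves, against even shares of 7.14% and 6.67%. The median HI calf had 18.5 reads, for which counting error alone gives a coefficient of variation of 23.2%.

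RTP5, the receptor transporter family member, was the gene for which all 14 HI calves lay below the MOD median, which held for 28 genes of the table (0.203%), while all 14 lay above it for 16 (0.116%). HI values ran from 3.43 CPM (calf 2528) through a median of 8.68 to 18.5 CPM (calf 2535). MOD values ran from 1.61 CPM (calf 1395) through a median of 18.8 to 29.2 CPM (calf 1392). The last HI calf was separated from the MOD median by less than its counting error: calf 2535 had 286 reads (interval 16.4 to 20.8 CPM) and the median MOD calf, 2551, had 262 reads (16.6 to 21.2 CPM). More MOD calves stood above the highest HI calf for RTP5 (8 of 15) than for any other member, and 5 MOD calves (975, 991, 1082, 1395 and 1690) were below the HI median. The means were 8.78 ± 4.00 CPM (SD, n = 14) and 15.6 ± 9.26 CPM (SD, n = 15), with a log2 difference of -0.56 (SE 0.33).

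**Figure D1:**
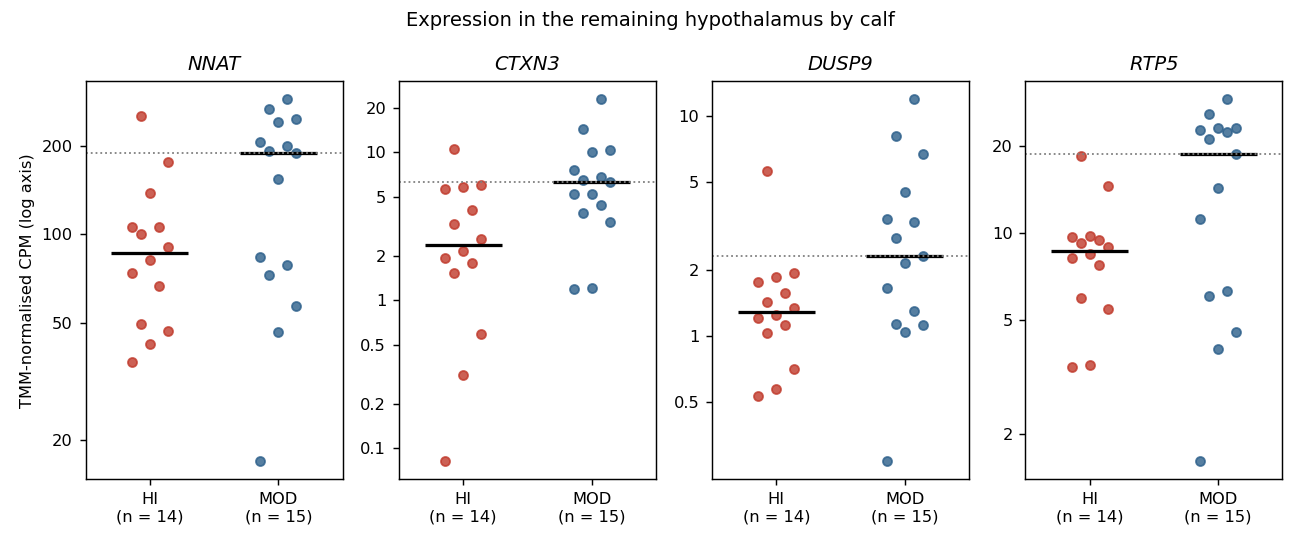
Normalised CPM of NNAT, CTXN3, DUSP9 and RTP5 (log axis) in each of 14 HI and 15 MOD calves, 1 point per calf, with black bars at the median of each diet and a dotted line at the MOD median. HI points lie below the dotted line except for calf 986 (NNAT and DUSP9) and calf 1388 (CTXN3), and MOD points spread on both sides of the HI points.

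The spread differed between diets in the same direction for 3 members. On the log2 scale the SD was 0.79 in HI and 1.16 in MOD calves for NNAT, 0.52 and 0.92 for DUSP9, and 0.59 and 1.10 for RTP5, whereas it was 0.99 and 0.92 for CTXN3. These SDs were not tested against each other. The share of HI-MOD pairs in which the HI calf was lower was 67.6% for NNAT, 71.4% for DUSP9 and 70.5% for RTP5, a smaller separation than the count of 13 or 14 HI calves conveys, since that count takes no account of the low MOD calves. In a bulk sample, fewer cells that make a transcript and less transcript per cell cannot be told apart.

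Leaving out each MOD calf in turn, which can move the MOD median, left the count for DUSP9 at 13 of 14 in all 15 cases. The count was 12 of 14 for NNAT and 13 of 14 for RTP5 in 8 of the 15 cases, and 11 of 14 for CTXN3 in 7 of the 15. Leaving out an HI calf removed that calf alone from the counts. Without the 4 calves that stood apart, the number was 11 of 13 for NNAT and 12 of 13 for each of CTXN3, DUSP9 and RTP5, and the log2 differences were -0.72, -1.10, -0.77 and -0.65. The median log2 difference over all genes was 0.02.

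The libraries fell into 5 groups by the number that starts their sequencing file name, with 2 to 4 calves per diet in each. Within these groups the mean of HI calves was the lower for CTXN3 in 5 of 5, with log2 differences of -1.75 to -0.15. It was the lower in 4 of 5 for DUSP9 (-1.80 to 0.14) and RTP5 (-1.33 to 0.24) and in 3 of 5 for NNAT (-1.69 to 0.46). The lower level of NNAT, DUSP9 and RTP5 in HI calves therefore did not hold in every group of libraries. What the file-name number stands for was not given in the sources used here.

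**Figure D2:**
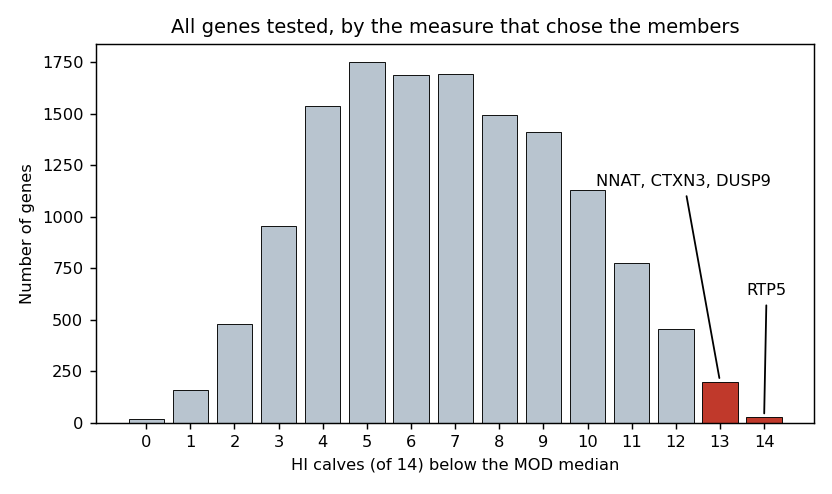
Number of genes (of 13785 tested) by how many of the 14 HI calves lay below the MOD median, with bars for 13 and 14 in red. NNAT, CTXN3 and DUSP9 fall in the bar of 13 (200 genes) and RTP5 in that of 14 (28 genes).

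The 39 genes that the study listed for this tissue were the pool from which the members came, and they were selected on these samples. Of these, 35 passed the filter and 6 had at least 13 HI calves below the MOD median. Besides the members these were OTOF (otoferlin, a calcium sensor of vesicle fusion) whose median was 1.65 CPM for HI against 4.18 CPM for MOD, and TMEM176B (a membrane protein) with 1.21 and 1.72 CPM. They met the same count, 13 of 14, but were not in the group of genes examined. Just outside were BAIAP3 (a Munc13-related protein of dense-core vesicle traffic) with medians of 50.1 and 140 CPM and SNCG (gamma-synuclein) with 10.7 and 36.8 CPM, each with 12 of 14 HI calves below the MOD median. A count of at least 12 below was met by 684 genes of the table (4.96%) and of at least 12 above by 656 (4.76%).

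In MOD calves the members had a smaller share of their summed values in a single calf than the median of that list. In the 23 other genes past the filter that the study listed as lower in HI calves, some of which had higher HI medians here (PMCH, 15.0 against 3.44 CPM), the highest MOD calf held 15.6 to 69.8% of the summed MOD values (median 37.2%), against 12.3% for NNAT, 20.9% for CTXN3, 23.1% for DUSP9 and 12.4% for RTP5. In HI calves the highest calf held 11.7 to 89.3% (median 24.6%) for those 23 genes, against 18.4% for NNAT, 22.8% for CTXN3, 25.8% for DUSP9 and 15.1% for RTP5. These shares are given without a test. Variation between calves was nonetheless high beside that of the whole table. The biological coefficient of variation of edgeR was 0.564 for NNAT, 0.752 for CTXN3, 0.682 for DUSP9 and 0.559 for RTP5, against a median of 0.346 over all genes, which placed the members at the 89.7th, 97.9th, 96.0th and 89.4th percentile.

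The 4 genes ranked the calves alike. MOD calves 911, 1392, 2532 and 2537 were above the MOD median for all 4 members, and 9 MOD calves were below the HI median for none of them. At the other end, MOD calf 1395 had the lowest value of all 29 calves for NNAT, DUSP9 and RTP5 but ranked 15th from the bottom for CTXN3. Among HI calves, 553, 2528 and 2570 were below the HI median for all 4 members. Of the 14 HI calves, 12 were above the MOD median for no member, calf 1388 for 1 and calf 986 for 2. Calf 986 was uneven across the members, ranking 27th of 29 for NNAT and 26th for DUSP9 but 20th for CTXN3 and 11th for RTP5.

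**Figure D3:**
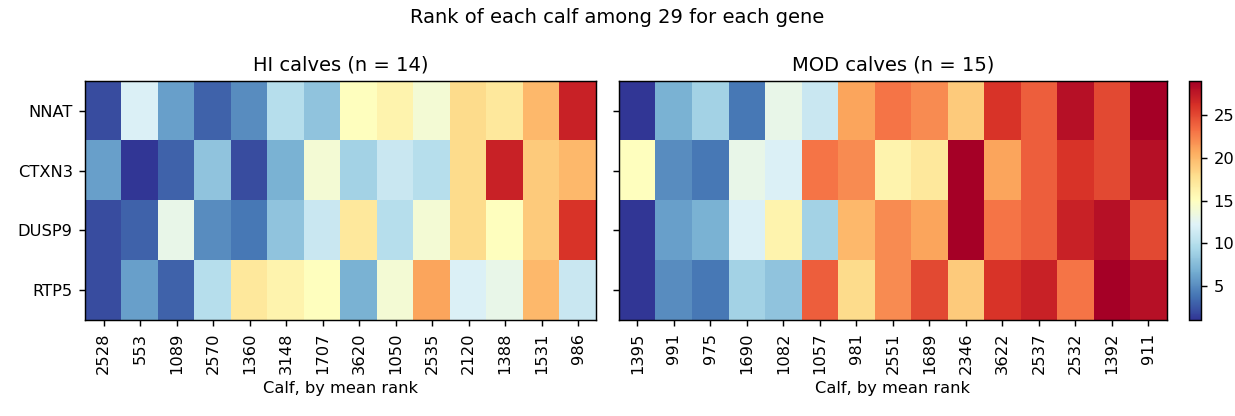
Rank of each calf among 29 (colour, 1 lowest, red highest) for NNAT, CTXN3, DUSP9 and RTP5, with HI and MOD calves in separate panels ordered by their mean rank. MOD calves divide into a low block on the left, with 975, 991 and 1395, and a high block on the right that ends with 911.

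To ask whether the members varied together beyond diet, the log2(CPM + 1) values were centred on the mean of each diet and correlated over the 29 calves (two-sided permutation within diet, Benjamini-Hochberg over 6 pairs). All 6 pairs were positively correlated and past an adjusted p of 0.05. NNAT and DUSP9 had the highest coefficient, with r = 0.784 and rho = 0.857 (permutation adjusted p = 3e-05, from an unadjusted p of 1e-05 that is the smallest the permutations can give). NNAT and RTP5 followed with r = 0.772 (rho = 0.659, permutation adjusted p = 3e-05) and CTXN3 and DUSP9 with r = 0.705 (rho = 0.800, permutation adjusted p = 6e-05). The other pairs were lower. They were DUSP9 and RTP5 (r = 0.601, rho = 0.60, permutation adjusted p = 0.00216), NNAT and CTXN3 (r = 0.593, rho = 0.746, permutation adjusted p = 0.00102), and CTXN3 and RTP5 (r = 0.555, rho = 0.578, permutation adjusted p = 0.00152). With the 2 calves most distant from the first gene's median left out of each pair, r was 0.588 to 0.730.

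**Figure D4:**
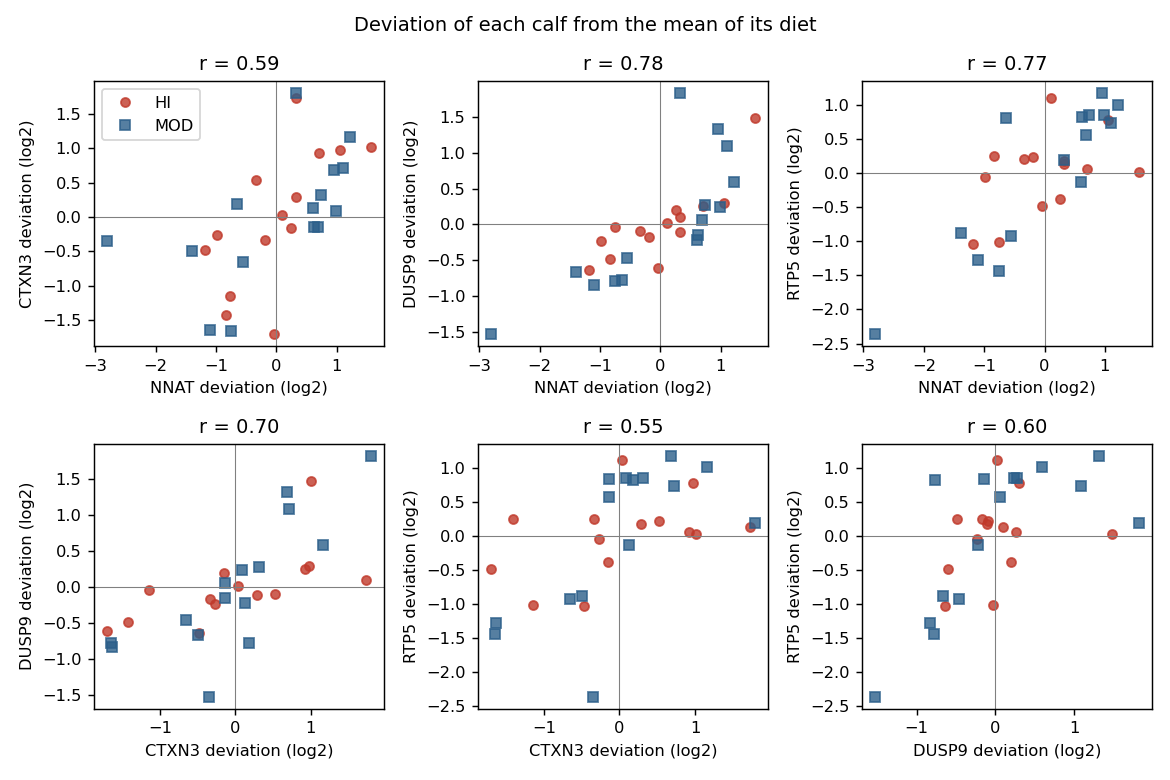
Deviation of each calf from the mean of its diet (log2(CPM + 1) scale, HI circles, MOD squares) for the 6 pairs of NNAT, CTXN3, DUSP9 and RTP5, with Pearson's r above each panel. Points rise from lower left to upper right in every panel, most tightly for NNAT against DUSP9 (r = 0.784), and MOD calf 1395 is the point at the far lower left for the NNAT-DUSP9, NNAT-RTP5 and DUSP9-RTP5 pairs.

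Within MOD calves alone all 6 pairs passed (r = 0.573 to 0.886, permutation adjusted p over 12 values of 0.00048 to 0.0367). Within HI calves 3 pairs passed, NNAT-DUSP9 (r = 0.818), NNAT-CTXN3 (r = 0.658) and CTXN3-DUSP9 (r = 0.635), with permutation adjusted p of 0.00048 to 0.0167. The 3 pairs with RTP5 did not pass in HI calves, with r = 0.452 to NNAT, 0.443 to CTXN3 and 0.260 to DUSP9. The difference between diets was not established for any pair. The NNAT-RTP5 pair came closest with a permutation p of 0.0479 (adjusted p = 0.287 over 6).

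Within the 4 file-name groups of 6 calves, 5 of the 6 pairs were positively correlated in every group. The range of r within groups was 0.702 to 0.899 for NNAT-CTXN3, 0.599 to 0.909 for NNAT-DUSP9, 0.578 to 0.975 for CTXN3-DUSP9, 0.506 to 0.877 for CTXN3-RTP5 and 0.311 to 0.982 for NNAT-RTP5. For DUSP9-RTP5 it ran from -0.355 to 0.880, so that this pair did not hold in every group. Over all 29 calves, neither recovered depth nor the normalisation factor correlated with a member past the threshold (0 of 8 relations, r from -0.211 to 0.194). Without the 4 calves that stood apart, the normalisation factor correlated with all 4 members (r = 0.573 to 0.616, each with a permutation adjusted p of 0.0101), and its part in the correlations between members was not tested.

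Against the whole table, the members were among each other's closest genes without being the closest. The whole table is not a like background for these ranks, because the members were chosen together on these same calves. The pair tests above take no account of that choice, and ranks among the other genes of the study's list are not given. Of 13784 other genes, DUSP9 was the 22nd closest to NNAT and NNAT the 6th closest to DUSP9 by diet-centred r. DUSP9 was the 10th closest to CTXN3, and NNAT the 19th closest to RTP5. The most distant relation was that of CTXN3, the 233rd closest to RTP5. An r over 0.7 was reached with 61 genes by NNAT, 54 by RTP5, 20 by DUSP9 and 11 by CTXN3, and 2 genes reached it with all 4 members, ENSBTAG00000001917 (r = 0.743 to 0.780) and ENSBTAG00000025200 (r = 0.726 to 0.862). The sources used here do not pair these identifiers with symbols.

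The 96 genes with a symbol that passed the filter came from the study's own lists, which already hold several neuropeptide precursors. Among these 96, the nearest to the members included such precursors. NNAT was closest to BAIAP3 (r = 0.897), to PENK (proenkephalin, r = 0.843) and to CARTPT (the CART peptide precursor, r = 0.813). Over all genes, PENK ranked 10th and CARTPT 13th for NNAT. RTP5 was closest to BAIAP3 (r = 0.849), NNAT and CARTPT (r = 0.760). DUSP9 was closest to AVP (r = 0.862) and OXT (r = 0.839), which were also the closest of all 13784 other genes, and then to PENK (r = 0.826). CTXN3 was closest to PENK (r = 0.747), CRTAC1 (a cartilage matrix protein also made in brain, r = 0.714) and DUSP9. These coefficients are descriptive, with no p, because the genes were picked as the highest of 96.

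At the low end of the 96 genes, NNAT, DUSP9 and RTP5 shared a gene that was not among the lowest 3 for CTXN3. Whether the members differed in these correlations was not tested. KLK6, a serine protease abundant in oligodendrocytes, was the lowest of the 96 for NNAT (r = -0.508), DUSP9 (r = -0.507) and RTP5 (r = -0.573). Over all genes, KLK6 ranked 75th from the lowest for NNAT, 51st for DUSP9 and 17th for RTP5. HHATL was among the lowest 3 for NNAT (r = -0.416) and DUSP9 (r = -0.402), and GADL1 for NNAT (r = -0.413). PYGM, the muscle form of glycogen phosphorylase that astrocytes also use, was among the lowest 3 for DUSP9 (r = -0.463) and RTP5 (r = -0.456), followed for RTP5 by C1QTNF1 (r = -0.412). CTXN3 had other genes at the low end: TRHDE, the enzyme that degrades thyrotropin-releasing hormone (r = -0.584), COL15A1, a basement membrane collagen (r = -0.495), and NEFH, a neurofilament subunit of large axons (r = -0.475).

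The 12 peptide genes that mark regions of the hypothalamus were then set against the members, 48 relations in all. Of these genes, POMC is also in the pituitary list. Pearson's r was positive in all 48, whereas rho was slightly negative in 4 with PDYN or POMC, and 22 passed an adjusted p of 0.05 (two-sided permutation within diet, Benjamini-Hochberg over 48). The lowest r among the 22 was 0.474, a value reached with 8 of the 12 peptide genes by NNAT, 5 by CTXN3, 4 by DUSP9 and 5 by RTP5. Of the 13784 other genes, 2.68% reached it with NNAT, 1.96% with CTXN3, 1.29% with DUSP9 and 3.08% with RTP5. The whole table is not a like background, because the peptide genes, as the members, come from the study's diet lists. AVP, OXT, HCRT, PMCH, PENK, PDYN, GAL and TAC1 are in the same list as the members, and the others are in the ARC list. All 22 relations were also past the threshold by Spearman's rho, were positive in HI (r = 0.316 to 0.819) and in MOD calves (r = 0.456 to 0.886), and stayed positive with the 2 calves most distant from the member's median left out (r = 0.448 to 0.830). Within the 4 file-name groups of 6 calves, 86 of the 88 coefficients of these 22 relations were positive.

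PENK, CARTPT and OXT passed with all 4 members. For PENK, the enkephalin precursor of several hypothalamic nuclei, r was 0.674 (RTP5) to 0.843 (NNAT), with permutation adjusted p of 9.6e-05 to 0.0011. For CARTPT, r was 0.577 (CTXN3) to 0.813 (NNAT), with permutation adjusted p of 9.6e-05 to 0.0035. OXT had r = 0.839 with DUSP9, 0.657 with NNAT, 0.571 with CTXN3 and 0.474 with RTP5 (permutation adjusted p = 0.0367 for the last). AVP passed with DUSP9 (r = 0.862), NNAT (r = 0.618) and CTXN3 (r = 0.570), and with RTP5 it had r = 0.440 (permutation adjusted p = 0.0624).

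The other peptides reached fewer members. TAC1 (the substance P precursor) passed with NNAT (r = 0.718), RTP5 (r = 0.599) and CTXN3 (r = 0.529). HCRT (orexin, r = 0.526) and PMCH (melanin-concentrating hormone, r = 0.569), of the lateral hypothalamus, and NPY (r = 0.522) passed with NNAT alone among the members. GAL (galanin) passed with RTP5 (r = 0.560) alone. POMC, PDYN and AGRP passed with no member, the highest r being 0.254 for POMC, 0.255 for PDYN and 0.300 for AGRP, which was close to 0 in every calf. Whether a peptide differed between members in its correlation was not tested.

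**Figure D5:**
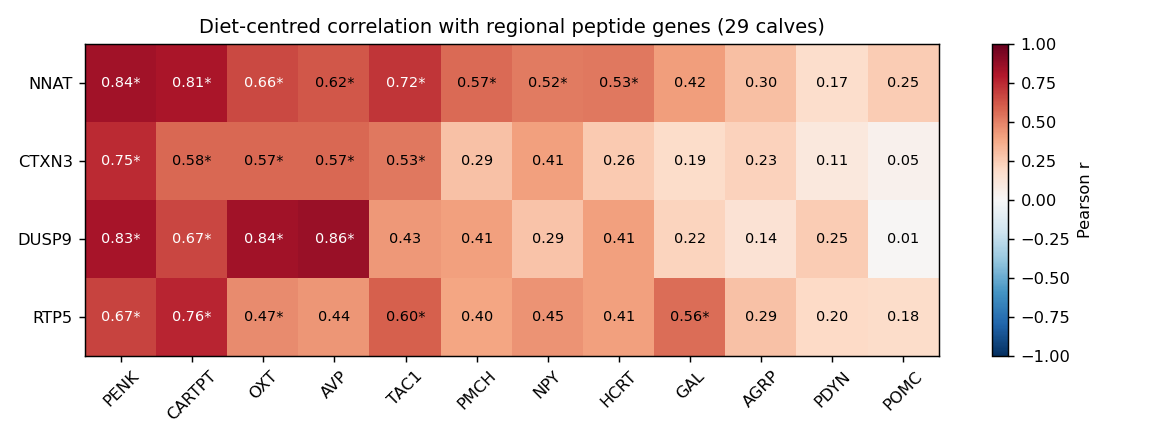
Diet-centred Pearson's r (number and colour) of NNAT, CTXN3, DUSP9 and RTP5 with 12 peptide genes over 29 calves, ordered by mean r. An asterisk marks a permutation adjusted p under 0.05 over the 48 relations, and most of the marked cells are on the left, from PENK to TAC1.

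The 2 calves with the highest AVP and OXT of their diets, HI 986 and MOD 2346, were also the highest HI and MOD calves for DUSP9. Without both calves r was 0.771 for DUSP9 with AVP and 0.738 for DUSP9 with OXT (permutation adjusted p = 0.000617 and 0.000693), and all 22 relations still passed. The part of the peptide transcripts in the lower values of HI calves was not tested. The families of the members could not be described from these data: of 49 genes listed for MAP kinase phosphatases, the ERK pathway, cortexins, receptor transporters, neuronatin partners and imprinted genes, 3 had an identifier paired with the symbol, and these were DUSP9, CTXN3 and RTP5 themselves. NNAT lies within an intron of BLCAP in the human genome. Per the study's methods the libraries were made with a stranded kit. The strand setting of the counting was not given, so whether reads of overlapping genes were told apart is not known.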

How the data were processed

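RNA-Seq was analysed in the remaining hypothalamus of 29 calves (14 HI, 15 MOD), grouped by their labels. The authors trimmed reads with cutadapt 2.6, aligned them to UMD3.1 with STAR, counted reads per gene and normalised them by TMM in edgeR. What the authors deposited is a signal in CPM of the TMM-adjusted library, unfiltered for low expression, and its columns summed to 895973 to 1257704. The labels name STAR 2.6.1, FastQC 0.11.8, R 3.4 and edgeR 3.5, and the study's methods give other versions for some of these. The labels start the diets at week 2 and the methods at a later week.

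Dividing by the value of 1 read gave whole reads for 100% of values (tolerance 0.01 reads), with 11820640 to 17206435 reads per calf (median 13723597). Recovered depth limits precision by counting error only. Normalisation factors were 0.795 to 1.12. The filter kept genes over 1 CPM in 14 or more calves (13785). The whole table was tested by limma 3.58.1 with trend (R 4.3.3) on log2(CPM + 1), with Benjamini-Hochberg adjustment, and on recovered reads by edgeR 4.0.16 and DESeq2 1.42.0. Correlations of diet-centred values used 100000 permutations within diet (20000 where calves were left out in turn). Alternatives were pseudocounts of 0.1 and 5, RLE factors, plain CPM, other filters, the file-name number as a factor, each calf left out, and the 4 distant calves left out. Leaving out calves 986 and 2346, and the alternatives for the peptide genes, were chosen after seeing the data. The limma test was also run on simulated counts with known changes.

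The members and lists were chosen with earlier results of these data known. The genes named are the members, the listed genes at or 1 calf short of the same count, the 3 nearest and 3 most distant genes with a symbol for each member, and the 12 peptide genes. BLCAP and the 2 genes without a symbol were added after the values were seen. Symbols came from 114 identifiers paired in the study's lists. The reference gene table (ARS-UCD2.0) matched 0 of the 24596 identifiers, so no coordinates or sequences are given. Marker lists for cell types had identifiers for 13 of 43 genes, under the share needed, and were not tested. The ARC samples were not analysed here.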

Additional observations from a re-analysis of the deposited data

How the results depend on the processing

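The direction of all 4 log2 differences held under every alternative run over both diets. Nothing is read from this, because the members were chosen on that direction, and within single file-name groups it did not always hold. The call of all 6 correlations between members held under every alternative run for them, which did not include the pseudocount of 5. Leaving out each calf in turn gave log2 differences of -0.75 to -0.46 for NNAT, -1.11 to -0.84 for CTXN3, -0.73 to -0.48 for DUSP9 and -0.73 to -0.48 for RTP5. Without a MOD calf, the counts of HI calves below the MOD median were 12 to 13 of 14 for NNAT, 11 to 13 for CTXN3, 13 for DUSP9 and 13 to 14 for RTP5, and without an HI calf they were 12 to 13 of 13 for NNAT, CTXN3 and DUSP9 and 13 of 13 for RTP5. The correlations were 0.564 to 0.668 for NNAT-CTXN3, 0.735 to 0.863 for NNAT-DUSP9, 0.677 to 0.815 for NNAT-RTP5, 0.645 to 0.745 for CTXN3-DUSP9, 0.500 to 0.610 for CTXN3-RTP5 and 0.499 to 0.664 for DUSP9-RTP5 (largest permutation adjusted p 0.0154). The pseudocount set the size of the differences of the low genes, -1.38 and -0.52 for CTXN3 and -0.82 and -0.31 for DUSP9 with pseudocounts of 0.1 and 5. With plain CPM, 12 HI calves were below the MOD median for NNAT and 13 for RTP5. The 228 genes with at least 13 HI calves below the MOD median became 28 at 14 calves and 684 at 12. Genes past the threshold numbered 0 with limma, 1 with the exact test and 2 with DESeq2 (172 and 305 at an unadjusted p under 0.05). Relations of members with depth or normalisation factor past the threshold rose from 0 to 4 of 8 without the 4 distant calves. The 22 relations with peptide genes became 28 by Spearman's rho or with the file-name number as a factor. No paired analysis was possible because the labels give HI and MOD calves no shared replicate number. The study's methods state that allocation was blocked by age, weight, sire and farm, but the block of each calf was not given in the sources used here. Depth limits DUSP9 and CTXN3 most, at medians of 22 and 61 reads per calf.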
